A study of Mus musculus with 6 samples.

Results

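The 29 probe sets described here are those whose platform annotation names nothing but variable, joining or constant segments of the mouse immunoglobulin loci, out of 23410 probe sets with a gene symbol on an Affymetrix mouse Gene ST array. They carried 29 different symbols and comprised 6 heavy chain constant, 4 heavy chain variable, 17 kappa and 2 lambda probe sets. Each of the 4 heavy variable probe sets also carried a constant region symbol. The arrays measured RNA of long-term hematopoietic stem cells (LT-HSCs), the marrow cells that sustain blood formation, in WT C57BL/6 mice and in Lxn-/- mice on the same background, in which exons 2 to 4 of latexin, an inhibitor of metallocarboxypeptidases, are deleted. All mice were females of 8 to 12 weeks. Each genotype had 3 arrays, and each array held 1 pool of about 100000 cells that had been sorted from 10 to 20 mice as negative for lineage markers, CD34 and a marker written Flt2 in the design text, and positive for Sca1 and c-Kit. A pool gives no view of single mice.

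Antibodies consist of heavy chains and of light chains of the kappa or lambda type. In developing B cells, the RAG recombinase joins 1 variable segment out of many to a joining segment, and the joined exon is spliced to a constant region, which sets the isotype: mu for IgM, gamma for IgG, alpha for IgA. Plasma cells, some of which reside in the bone marrow, transcribe the rearranged genes at very high rates, and early blood progenitors are known to transcribe unrearranged heavy chain loci. A stem cell gate is meant to leave out mature B cells and plasma cells. In bulk RNA, fewer cells of a type and less RNA per cell cannot be told apart.

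The signals are log2 values made by robust multi-array average (RMA), and all differences are Lxn-/- minus WT on that log2 scale. The median signal of an array lay between 7.77 and 7.91. In limma, 0 of 23410 probe sets reached an adjusted p of 0.05 (lowest 0.993), while 914, or 3.9%, had an unadjusted p under 0.05, 2.43% lower and 1.47% higher in Lxn-/-. Latexin itself read 8.99, 9.09 and 9.55 in WT and 8.66, 8.78 and 8.78 in Lxn-/-, and the sources used here do not place its probes relative to the deleted exons. All 12 measured LT-HSC markers, among them Kit and Procr, lay above 6.93, a background level set at the 95th percentile of 1210 probe sets for odorant or pheromone receptors. Cd34 and Flt3, whose products mark cells outside an LT-HSC gate, also gave signal, from 13.01 to 13.30 and from 11.59 to 12.20. All 10 measured genes of the list to which Cd34 and Flt3 belong had means above background, among them Itgam, Ly6g and Cd3e. The gate acts on proteins and the arrays measured RNA, and which cells gave these signals was not tested.

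The immunoglobulin probe sets were proposed with this genotype contrast already known, so their values are a description, with no test. All 29 lay above background, the dimmest with a mean of 9.28. The mean was lower in Lxn-/- for 26 of the 29, where 54.5% of all probe sets tested were lower. In 11 of the 29, every Lxn-/- array lay below every WT array, where 5.38% of all probe sets did so. Many of these 11 are linked by their annotation, as described below, and are not independent of each other. The reverse arrangement occurred in 0 of the 29 and in 3.6% of all probe sets. The median difference was -0.40 over the 29 and -0.01 over all probe sets tested. By class, the median was -0.21 for heavy constant, 0.29 for heavy variable, -0.48 for kappa and -0.12 for lambda. No heavy variable probe set was free of constant region symbols, so 0.29 is not a value of variable segments alone. In the kappa class, 17 of 17 were lower and 9 of 17 did not overlap. In the heavy constant class, 5 of 6 were lower and 1 did not overlap. Differences between classes were not tested.

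**Figure D1:**
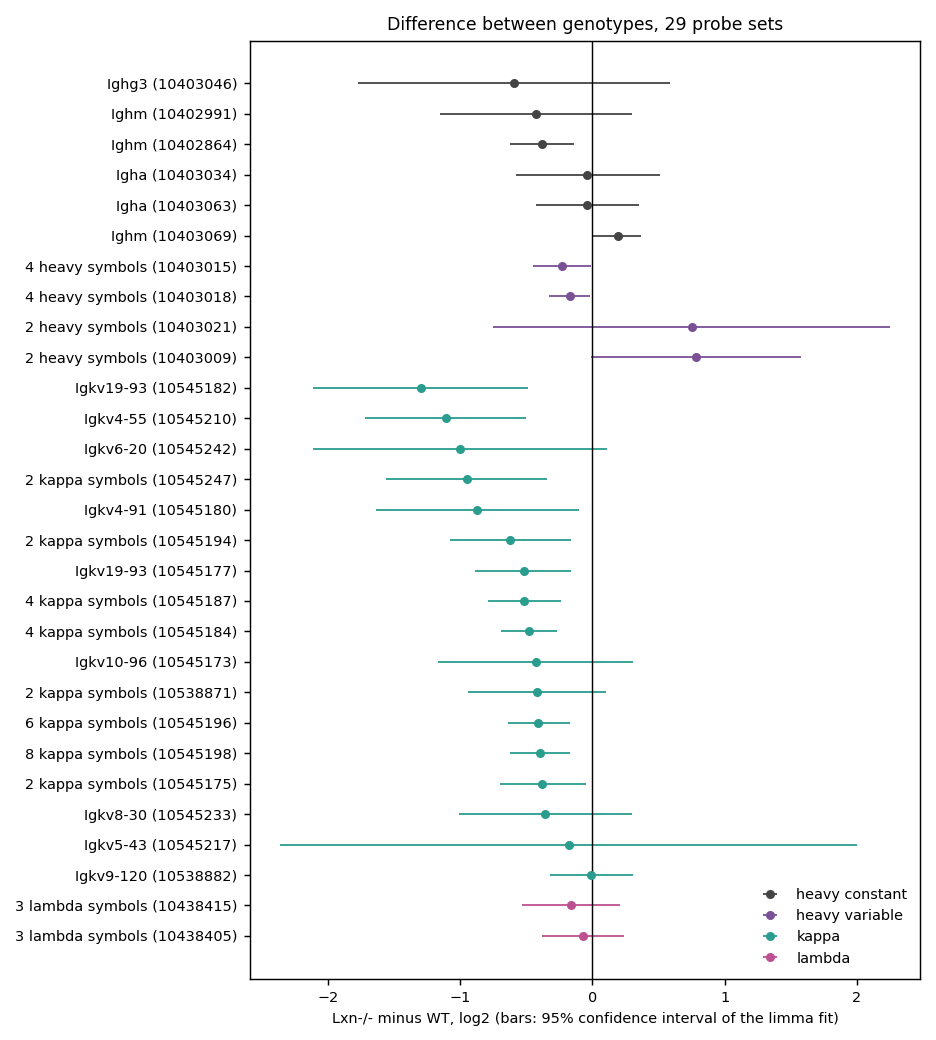
Difference between genotypes (Lxn-/- minus WT, log2) for each of the 29 probe sets, grouped by class, with points for the limma estimate and bars for its 95% confidence interval. All 17 kappa points lie below 0, from -1.30 to -0.01, and the heavy chain points lie on both sides of 0, from -0.59 to 0.78.

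The symbols do not stand for 29 separate transcripts. The platform annotation ties each probe set to GenBank accessions, and 49 of 148 such accessions were shared between members. Members linked by a shared accession formed 18 groups, of which the largest held 7 kappa probe sets. All 7 are among the 11 members, and the 9 kappa probe sets, without overlap between genotypes. Those counts are therefore not counts of independent probe sets. Only 15 of the 29 carried a single symbol. Antibody cDNAs are rearranged, so an accession named for a constant region can also contain a variable part, and nearly identical variable segments can bind the same probes. Which segment a probe set reports is therefore uncertain, and a probe set with several symbols is described by its class and identifier.

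Igkc encodes the constant region that all kappa light chains share. It appeared in the annotation of 4 probe sets, always together with variable segments of the Igkv4 family, and these 4 had the smallest spread within genotypes of the 17 kappa probe sets. Probe set 10545184 read 13.29, 13.15 and 13.17 in WT and 12.64, 12.64 and 12.90 in Lxn-/-. The genotypes did not overlap, and the difference was -0.48 (SE 0.09), or 1.39-fold. Probe set 10545187 read 13.19, 13.08 and 13.05 in WT and 12.33, 12.64 and 12.81 in Lxn-/-, a difference of -0.52 (SE 0.12). The other two, 10545196 and 10545198, differed by -0.41 (SE 0.10) and -0.40 (SE 0.10), again with no overlap. In all 4, WT replicate 1 was the highest array and Lxn-/- replicate 1 the lowest. The 4 belong to the largest linked group and are not independent of each other.

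Variable segments encode the part of the light chain that contacts antigen, and a clone of B cells or plasma cells uses 1 productive kappa variable segment as a rule. Among probe sets with a single kappa symbol, the widest difference was that of 10545182, annotated to Igkv19-93. It read 11.84, 11.89 and 11.57 in WT and 11.06, 10.83 and 9.53 in Lxn-/-, a difference of -1.30 (SE 0.35). All Lxn-/- values lay below all WT values, and Lxn-/- replicate 3 lay farthest down. Without that array the difference was -0.83. The second probe set of Igkv19-93, 10545177, read 13.66, 13.83 and 13.66 in WT and 13.15, 13.56 and 12.88 in Lxn-/-, a difference of -0.52 (SE 0.16), which also had its lowest value in Lxn-/- replicate 3.

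Igkv4-55 (10545210) read 12.89, 12.58 and 12.51 in WT and 11.47, 11.01 and 12.18 in Lxn-/-, with no overlap, a difference of -1.11 (SE 0.26) and the lowest value in Lxn-/- replicate 2. Igkv6-20 (10545242) read 10.69, 11.29 and 11.98 in WT and 11.16, 10.53 and 9.27 in Lxn-/-. Its genotypes overlapped, and the difference of -1.00 (SE 0.48) was -0.47 without Lxn-/- replicate 3 and -0.67 without WT replicate 3. Igkv4-91 (10545180) read 11.76, 11.20 and 10.29 in WT and 9.87, 10.46 and 10.32 in Lxn-/-. WT replicate 3 lay within the Lxn-/- range there, and the difference of -0.87 (SE 0.33) was -0.53 without WT replicate 1. Igkv10-96 (10545173) read 13.17, 13.10 and 13.27 in WT and 12.18, 13.61 and 12.45 in Lxn-/-. Its highest value was that of Lxn-/- replicate 2, and the difference of -0.43 (SE 0.32) was -0.15 without Lxn-/- replicate 1 and -0.87 without Lxn-/- replicate 2.

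The remaining 3 single-symbol kappa probe sets, named here after their values were seen, had smaller differences. Igkv5-43 (10545217) gave 9.09 to 10.58 in WT and 7.21 to 11.23 in Lxn-/-, the widest range within a genotype among the 29. Its difference was -0.18 (SE 0.94), but 0.17 without WT replicate 1 and 1.06 without Lxn-/- replicate 3. The difference of -0.36 (SE 0.28) for Igkv8-30 was -0.03 without Lxn-/- replicate 1 and -0.19 without WT replicate 2. Igkv9-120 differed by -0.01 (SE 0.14; 95% confidence interval -0.32 to 0.31), and by 0.14 without WT replicate 3 and 0.06 without Lxn-/- replicate 3. The signs of Igkv5-43 and Igkv9-120, which count among the 17 lower kappa probe sets, thus rest on single arrays.

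Of the 8 kappa probe sets with several symbols, 6 had no overlap between genotypes, and the 4 with Igkc are among these 6. Of all probe sets tested, 5.38% had every Lxn-/- array below every WT array. The 4 with Igkc and 10545194 belong to the largest linked group and are not independent of each other. Probe set 10545247, annotated to a pair of Igkv6 segments, read 12.95, 13.08 and 13.20 in WT and 12.24, 12.67 and 11.46 in Lxn-/-, a difference of -0.95 (SE 0.26). Probe set 10545194, annotated to a pair of Igkv4 segments, differed by -0.62 (SE 0.20). The 2 with overlap were 10538871 at -0.42 (SE 0.23) and 10545175 at -0.38 (SE 0.14). A further 2 kappa-annotated probe sets, 10538880 and 10538921, also list the kinase gene Map3k20 and were therefore not members. Both had higher means in Lxn-/-, by 0.45 (SE 0.48) and 0.18 (SE 0.24).

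**Figure D2:**
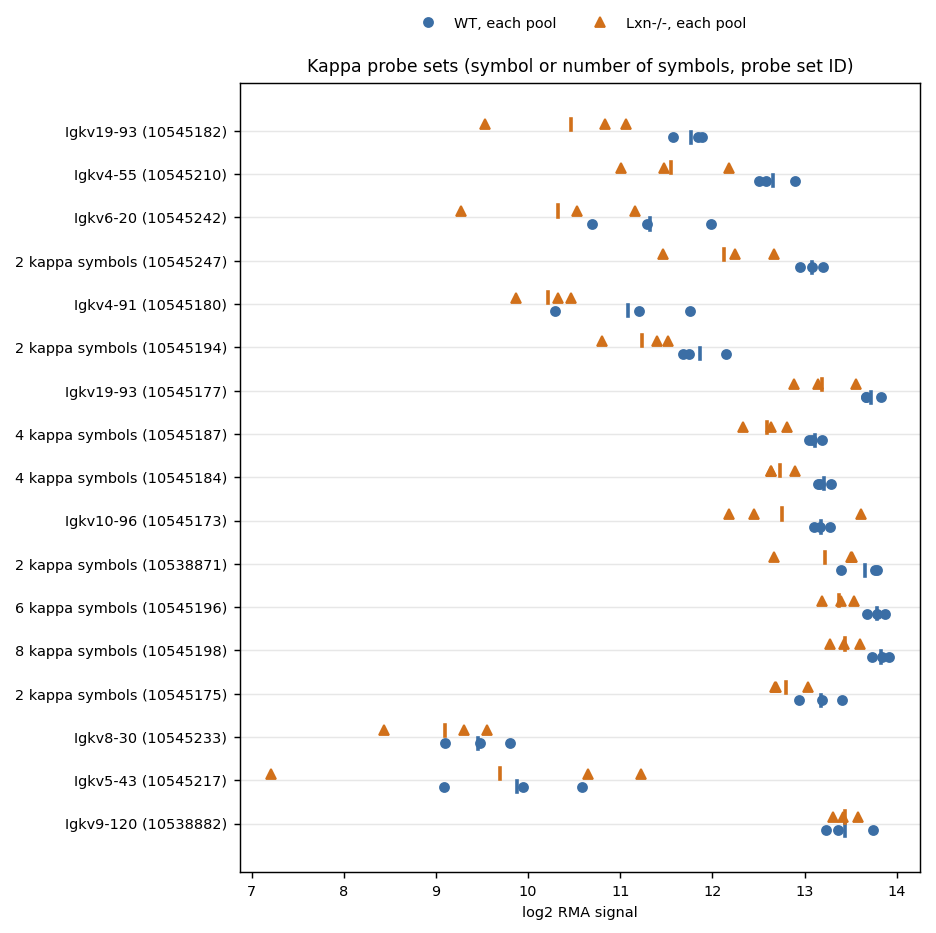
Log2 RMA signal of the 17 kappa probe sets, ordered by difference, with circles for WT pools, triangles for Lxn-/- pools and vertical ticks for the mean of 3. Igkv19-93 at the top reads 11.57 to 11.89 in WT and 9.53 to 11.06 in Lxn-/-, and Igkv9-120 at the bottom overlaps throughout.

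The array with the lowest kappa signal differed between probe sets. Of the 17 kappa probe sets, 9 were lowest in Lxn-/- replicate 1, 6 in Lxn-/- replicate 3, 1 in Lxn-/- replicate 2 and 1 in WT replicate 2. Over all 23410 probe sets tested, these counts were 3850, 3945, 4543 and 2449, and 3593 were highest in WT replicate 1. The 7 probe sets annotated mainly to Igkv4 segments, with or without Igkc, a grouping made after the values were seen, were highest in WT replicate 1 in 7 of 7 and lowest in Lxn-/- replicate 1 in 6 of 7. The Igkv19-93, Igkv6-20 and Igkv5-43 probe sets and those of paired Igkv6 or Igkv1 segments were instead lowest in Lxn-/- replicate 3. In the order of genes along the kappa locus given by RefSeq (assembly GRCm38.p6), which lists 162 Igkv genes, 14 lie between Igkv6-14 and the joining segments, 20 between Igkv6-20 and them, 57 for Igkv4-55, 108 for Igkv19-93 and 159 for Igkv1-135. These are positions of annotated symbols, and the Igkv19-93 probe sets are linked by shared accessions to those with Igkc.

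**Figure D3:**
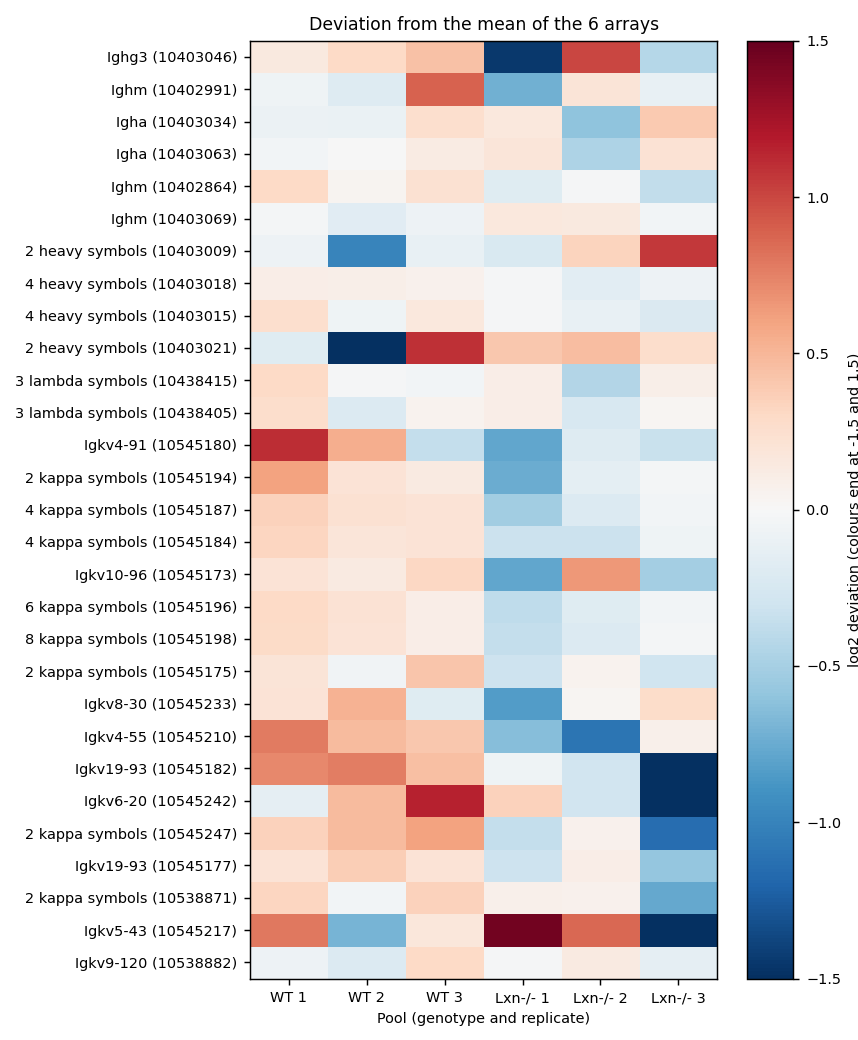
Deviation of each of the 29 probe sets from its mean over the 6 arrays (log2; red above, blue below), with 1 column per pool and rows grouped by class and, within a class, by the Lxn-/- pool with the lowest value. The rows with 4, 6 and 8 kappa symbols, which include Igkc, have median deviations of -0.37, -0.21 and -0.04 in Lxn-/- replicates 1, 2 and 3, whereas Igkv19-93 (10545182) and Igkv6-20 are lowest in replicate 3, at 9.53 and 9.27.

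Heavy chain constant regions gave no uniform picture. Ighm, the mu constant region of IgM, had 3 probe sets that disagreed in sign. The first, 10402864, read 12.08, 11.83 and 12.01 in WT and 11.60, 11.76 and 11.42 in Lxn-/-. Its genotypes did not overlap, and the difference was -0.38 (SE 0.11), or 1.30-fold. The second, 10402991, read 11.72, 11.59 and 12.67 in WT and 11.06, 11.98 and 11.67 in Lxn-/-, a difference of -0.43 (SE 0.31) that was -0.09 without WT replicate 3 and -0.17 without Lxn-/- replicate 1. The third, 10403069, read 11.15, 11.01 and 11.10 in WT and 11.34, 11.33 and 11.14 in Lxn-/-, a difference of 0.19 (SE 0.08). Probe sets 10402864 and 10403069 share an accession, so the opposite signs occurred under the same cDNA annotation.

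Igha, the alpha constant region of IgA, had nearly equal means. Probe set 10403034 read 13.31, 13.30 and 13.65 in WT and 13.56, 12.80 and 13.79 in Lxn-/-, and the difference was -0.04 (SE 0.23). Probe set 10403063 read 11.97, 12.00 and 12.13 in WT and 12.19, 11.55 and 12.23 in Lxn-/-, with a difference of -0.04 (SE 0.17). Both were lowest in Lxn-/- replicate 2, without which the differences were 0.25 and 0.18. The 95% confidence intervals, -0.58 to 0.51 and -0.43 to 0.35, still include the -0.40 and -0.41 of 2 Igkc probe sets. Ighg3, the constant region of the IgG3 subclass, had 1 probe set, which read 10.84, 10.99 and 11.13 in WT and 9.25, 11.69 and 10.26 in Lxn-/-. Lxn-/- replicate 2 was the highest array and replicate 1 the lowest, and the difference of -0.59 (SE 0.51) was -0.01 without Lxn-/- replicate 1 and -1.23 without Lxn-/- replicate 2.

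The heavy variable class pointed both ways. Probe sets 10403015 and 10403018, each with 4 heavy symbols, differed by -0.23 (SE 0.10) and -0.17 (SE 0.07). In the second, WT arrays read 13.44, 13.43 and 13.41 and Lxn-/- arrays 13.33, 13.18 and 13.27, with no overlap. Probe set 10403009 read 10.35, 9.44 and 10.32 in WT and 10.20, 10.76 and 11.49 in Lxn-/-, a difference of 0.78 (SE 0.34). Probe set 10403021 read 10.78, 8.93 and 12.06 in WT and 11.37, 11.43 and 11.23 in Lxn-/-, a difference of 0.75 (SE 0.65) that was -0.08 without WT replicate 2, the lowest array. Without that array the class median was -0.12 in place of 0.29.

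Lambda light chains are the minor light chain type of the mouse. Both lambda probe sets carried the same 3 symbols. Probe set 10438405 read 13.81, 13.34 and 13.59 in WT and 13.64, 13.30 and 13.57 in Lxn-/-, and the difference was -0.07 (SE 0.13, 95% confidence interval -0.38 to 0.24). Probe set 10438415 read 13.03, 12.72 and 12.70 in WT and 12.84, 12.30 and 12.83 in Lxn-/-, with a difference of -0.16 (SE 0.16, 95% confidence interval -0.53 to 0.21). WT replicate 1 was highest and Lxn-/- replicate 2 lowest in both, and the genotypes overlapped. The sign rested on these arrays: 10438405 differed by 0.04 without WT replicate 1 and by 0.03 without Lxn-/- replicate 2, and 10438415 by 0.02 without Lxn-/- replicate 2.

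**Figure D4:**
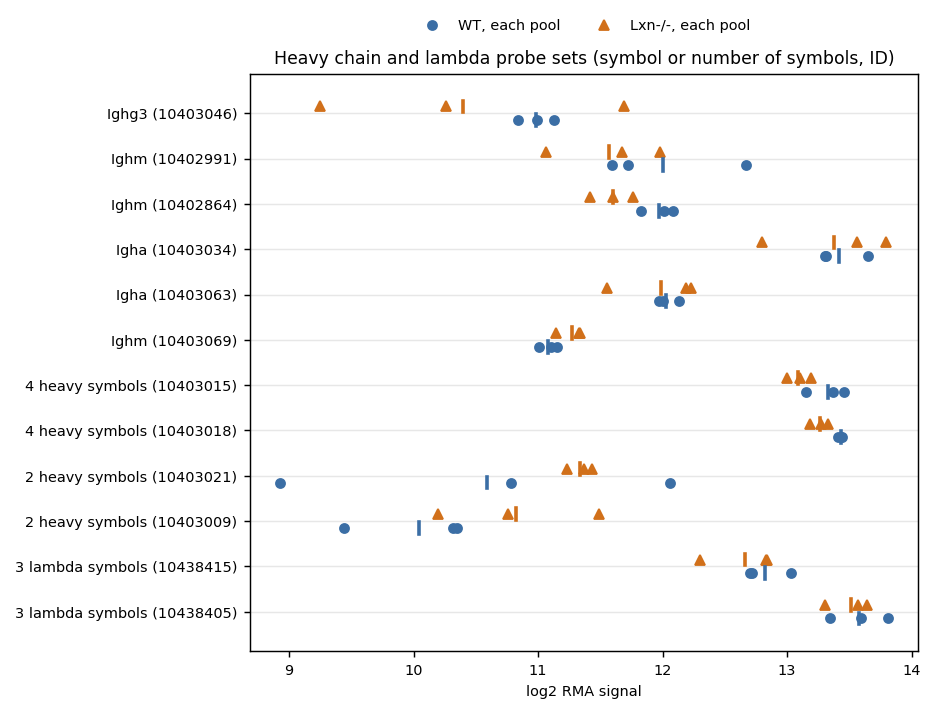
Log2 RMA signal of the 10 heavy chain and 2 lambda probe sets, with circles for WT pools, triangles for Lxn-/- pools and vertical ticks for the mean of 3. Of these 12, only 10402864 (Ighm) and 10403018 show all triangles to the left of all circles.

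Immunoglobulin signals varied more between pools of the same genotype than most probe sets did. The median standard deviation within a genotype was 0.33 for the 29, against 0.10 over all probe sets tested, and 97.3% of all probe sets had a smaller value than the median member. The standard deviation was larger in Lxn-/- than in WT for 22 of the 29, with medians of 0.34 and 0.19. Over all probe sets both medians were 0.09, and it was larger in Lxn-/- for 11305 of 23410. Each standard deviation rests on 3 arrays, and linked members are not independent of each other. Among kappa probe sets, 14 of 17 were more variable in Lxn-/-. The 4 Igkc probe sets had medians of 0.08 in WT and 0.17 in Lxn-/-. Single-symbol kappa probe sets had medians of 0.27 and 0.59. T cell receptor segments, which are rearranged by the same recombinase in another lineage, gave a median within-genotype value of 0.13 over 52 probe sets. Their median difference was -0.07, with 44 of 52 lower (33 of 41 when identical values were counted once), 6 of 52 with every Lxn-/- array below every WT array, where the shares over all probe sets tested were 54.5% and 5.38%, and 30 of 52 above background.

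The genes that act with immunoglobulins were grouped by role. For antibody assembly and secretion, 23 of 26 genes had a lower mean in Lxn-/- and 18 of 26 had every Lxn-/- array below every WT array, where 54.5% and 5.38% of all probe sets tested did so. The median difference was -0.31. WT replicate 1 was the highest array for 23 of the 26, where it was so for 3593 of 23410 probe sets tested. The median was -0.22 without that array and -0.24 with array weights. It was -0.38 to -0.30 when any other single array was left out. No member passed the limma test (0 of 26; 17 at an unadjusted p under 0.05, all lower, where 2.43% of all probe sets were). Jchain, the joining chain of polymeric IgM and IgA, read 13.33, 12.93 and 13.17 in WT and 12.83, 12.90 and 12.81 in Lxn-/-, a difference of -0.30 (SE 0.10). Every Lxn-/- value lay below every WT value. The Jchain difference was -0.20 without WT replicate 1 and -0.18 with array weights. The lowest unadjusted p-values of the group belonged to Mzb1, Sdc1, Txndc5 and Derl3, at -0.80, -0.48, -0.48 and -0.57. Mzb1 is a chaperone of antibody-secreting cells, Sdc1 a plasma cell surface proteoglycan, Txndc5 a disulfide isomerase and Derl3 a component of protein disposal from the endoplasmic reticulum.

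Transcription factors of the immunoglobulin loci had a median of -0.04, with 13 of 18 lower. None passed the test (0 of 18), and 3 had an unadjusted p under 0.05. Over all probe sets tested, 54.5% had a lower mean and 3.9% an unadjusted p under 0.05. Pou2af1, the coactivator of octamer-binding factors at immunoglobulin promoters, read 11.22, 10.82 and 11.27 in WT and 10.30, 10.45 and 10.34 in Lxn-/-, a difference of -0.74 (SE 0.12). Irf4, a factor of plasma cell differentiation, differed by -0.67 (SE 0.18), and Spib and Foxo1 by -0.24 (SE 0.09) and -0.16 (SE 0.09).

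The signalling partners of the B cell receptor had a median of -0.07 with 8 of 14 lower and 0 of 14 past the test (2 at an unadjusted p under 0.05). Those 2 were its signalling subunits, Cd79a at -0.61 (SE 0.23) and Cd79b at -0.30 (SE 0.11). The adaptor Blnk differed by -0.35 and the tetraspanin Cd81 by -0.16. Of these genes only Cd79a had no overlap between genotypes, and WT replicate 3 was the highest array for each. Without that array Cd79a differed by -0.35, Cd79b by -0.21, Blnk by -0.20 and Cd81 by -0.071. Of all probe sets tested, 54.5% had a lower mean and 3.9% an unadjusted p under 0.05. All 4 genes of the surrogate light chain and its partners, which precede light chains in early B cells, had lower means, and 0 of 4 passed the test (0 at an unadjusted p under 0.05). They were Vpreb3 (-0.42), Igll1 (-0.40), Vpreb1 (-0.19) and Vpreb2 (-0.07, and 0.0035 without Lxn-/- replicate 2), and their genotypes overlapped. Without WT replicate 3, Vpreb3 was -0.18, Igll1 -0.14 and Vpreb1 -0.039, and the median of the 4 was -0.11 in place of -0.30. Without Lxn-/- replicate 3 the median was -0.18.

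Genes of V(D)J recombination had a median of 0.04, with 5 of 12 lower and 0 of 12 past the test (1 at an unadjusted p under 0.05, the ligase gene Lig4 at -0.29). The shares over all probe sets tested were 54.5% lower and 3.9% at an unadjusted p under 0.05. Rag2 lay below background and Rag1, the other recombinase subunit, differed by -0.16 (SE 0.12). Prkdc, the DNA-dependent kinase, differed by 0.14 and the ligase cofactor Xrcc4 by 0.09. Class switching and hypermutation genes had a median of 0.02 with 2 of 8 lower and 0 of 8 past the test (0 at an unadjusted p under 0.05). Fc receptors and antibody transporters had a median of -0.05 with 7 of 11 lower and 0 of 11 past the test. The 1 member at an unadjusted p under 0.05 was Fcmr, the receptor for IgM, at -0.49 (SE 0.12). Fcamr, Fcer2a, Fcgr4 and Pigr of that list lay below background.

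Markers of other cells that a sorted pool could hold were summed on the linear scale for each array and given as log2. Plasma cell markers had lower means for 15 of 15 genes, 12 of them with every Lxn-/- array below every WT array, where 5.38% of all probe sets tested lay that way. None of them passed the limma test (0 of 15), and 11 had an unadjusted p under 0.05, all lower. Of all probe sets tested, 54.5% had a lower mean, and 2.43% were lower at an unadjusted p under 0.05. The sums of the plasma cell markers ran from 14.87 to 15.23 in WT and from 14.62 to 14.69 in Lxn-/-. WT replicate 1 was the highest array for 14 of the 15, and for 4 of 4 Igkc, 7 of 17 kappa and 12 of 29 immunoglobulin probe sets. Lxn-/- replicate 1 was the lowest array for 3 of the 15, and for 4 of 4 Igkc and 9 of 17 kappa probe sets. Lxn-/- replicate 3 was the lowest for 6 of the 15, 0 of 4 Igkc and 6 of 17 kappa probe sets. Of all 23410 probe sets tested, 3593 were highest in WT replicate 1. The lowest array was Lxn-/- replicate 1 for 3850 and Lxn-/- replicate 3 for 3945. The 4 Igkc probe sets belong to the same linked group. All 15 plasma cell markers also belong to the assembly and secretion list. B cell markers had lower means for 16 of 17 genes, 3 of 17 without overlap and 0 of 17 past the test (5 at an unadjusted p under 0.05), with sums of 13.97 to 14.43 in WT and 13.80 to 13.95 in Lxn-/-. Cr2 and Fcer2a of that list lay below background. The mature B cell marker Ms4a1 differed by -0.37 (SE 0.15), with overlap. All 15 plasma cell markers lay above background. What part these cells have in the immunoglobulin values was not tested.

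Other marker sums overlapped between the genotypes. For the counts of lower genes below, the share over all probe sets tested was 54.5%. Plasmacytoid dendritic cell markers gave 12.73 to 12.80 in WT and 12.67 to 12.87 in Lxn-/-, with 5 of 10 lower and Cd209d below background. T cell and NK cell markers gave 13.06 to 13.18 and 12.91 to 13.54, with 7 of 17 lower and Cd3d, Cd8b1 and Gzma below background. Neutrophil markers gave 14.71 to 15.54 and 15.19 to 15.66, with 3 of 13 lower. Bright genes such as Mpo, at 13.34 to 13.67, weigh most in a linear sum. The median deviation of the 13 genes from their means over all arrays varied more between pools than the sums did. It was 0.85, 0.1 and -1.42 in WT and 0.19, -0.81 and 1.38 in Lxn-/-. Erythroid markers, lower for 8 of 8, gave 14.08 to 14.66 and 13.79 to 14.52. Eosinophil and mast cell markers, also lower for 8 of 8 and with Cma1 below background, gave 12.93 to 13.72 and 11.85 to 13.07, with the lowest sum in Lxn-/- replicate 3. LT-HSC markers gave 14.73 to 14.82 and 14.75 to 14.92, with 3 of 12 lower. Their part in the immunoglobulin values was not tested.

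**Figure D5:**
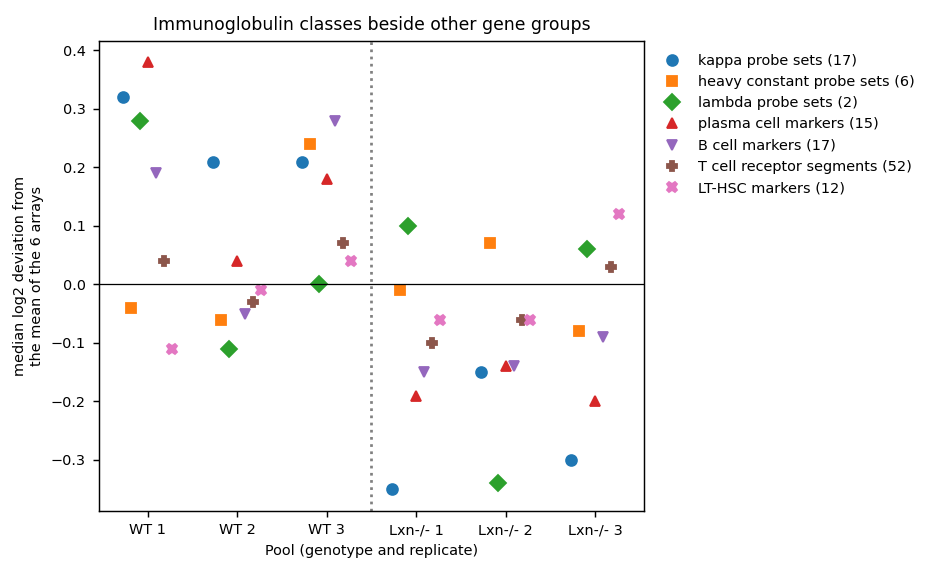
Median log2 deviation of each gene group from its mean over the 6 arrays, by pool, for 3 immunoglobulin classes and 4 other groups. Kappa probe sets lie between 0.21 and 0.32 in WT and between -0.35 and -0.15 in Lxn-/-, plasma cell markers between 0.04 and 0.38 and between -0.20 and -0.14, and LT-HSC markers between -0.11 and 0.12 in all pools.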

How the data were processed

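The deposited values are log2 expression signals from RMA. RMA is named by the series' design text and, with Partek 6.0, by the submitters' processing notes. The labels do not say how background was corrected or which probe set definitions were used. Per the labels' protocols, 100 ng of total RNA per sample was turned into biotin-labelled cRNA. GEO's platform annotation named 1 gene for 21789 of the 35557 probe sets, several for 1621 and none for 12147. All 29 member symbols matched RefSeq gene identifiers, which gave the segment types. RefSeq promoter sequences matched 0 of them, so promoter motifs were not searched.

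The comparison of genotypes used limma 3.58.1 under R 4.3.3 (lmFit and eBayes, no covariates, two-sided, Benjamini-Hochberg over 23410 probe sets) on the 6 arrays. The fit was tested on simulated data. SE is the moderated standard error. With 3 arrays against 3, an exact permutation test cannot give a p below 0.1, and precision is limited by the number of arrays. For a gene in a list, the single-symbol probe set of highest mean was used.

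The members, gene lists and other settings were chosen with earlier results of these data known. Named members were all single-symbol heavy constant probe sets and, of single-symbol kappa probe sets, the 6 with the largest negative differences and up to 3 with positive ones. Each gene list gave up to 4 genes of lowest unadjusted p, and Lxn, Ms4a1, Cd79a, Jchain, Mzb1, Sdc1, Pou2af1 and Igll1 were always named.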

Additional observations from a re-analysis of the deposited data

How the results depend on the processing

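No setting gave a probe set past an adjusted p of 0.05, including quantile normalization, array weights, all probe sets of the table and eBayes with trend and robust. An unadjusted p under 0.05 was reached by 914 probe sets, and by 1807 with array weights, 1597 over all probe sets, 1556 without WT replicate 1 and 527 without dim probe sets. Lower means in Lxn-/- were found for 14 of the 15 members with exactly 1 symbol and for 16 of 18 values when linked probe sets were averaged, an alternative chosen after seeing the data, and for 22 to 27 of 29 when single arrays were left out. Without overlap were 4 of the 15. Another alternative outside the original plan left out the heavy variable probe sets, which mix variable and constant symbols. Of the 25 members then left, 24 were lower, 10 had no overlap and the median was -0.42. In the fit on all 6 arrays, 54.5% of all probe sets tested were lower, and 5.38% had every Lxn-/- array below every WT array. The median over all members was -0.31 with array weights and -0.47 to -0.31 when single arrays were left out. These ranges were -0.27 to -0.04 for heavy constant, -0.12 to 0.37 for heavy variable, -0.66 to -0.43 for kappa and -0.20 to 0.02 for lambda probe sets. The heavy variable median was 0.75 with linked probe sets averaged. When single arrays were left out, Trp53bp1 ranged from -0.039 (without WT replicate 3) to 0.17, Ung from -0.0028 (without WT replicate 1) to 0.075 and Vpreb2 from -0.16 to 0.0035 (without Lxn-/- replicate 2). Ung was also -0.0071 with quantile normalization, -0.011 with a common median and -0.0037 with array weights. The cause of these changes was not tested. With the replicate number as a block, 0 probe sets passed, 26 members were lower and 1173 probe sets had an unadjusted p under 0.05. The deviations of same-numbered arrays correlated at 0.372, -0.072 and -0.081, so the numbers were not taken to pair the pools.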
